A study of Mus musculus with 8 samples.

Results

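The replication-dependent histone cluster genes are the 64 genes of the table whose symbols begin with Hist1h, Hist2h, Hist3h or Hist4h, out of 23983 genes in all. Hist1h1t, Hist1h2ba and Hist1h2aa carry such symbols too but are testis histones, and they were left out by the rule. The 64 comprise 5 genes of the linker histone H1 and 17 of H2A, 17 of H2B, 12 of H3 and 13 of H4, the core histones. Of these, 50 lie in the Hist1 cluster on chromosome 13, 10 in Hist2 on chromosome 3 and 3 in Hist3 on chromosome 11, and Hist4h4 lies on chromosome 6 (GRCm38). RNA-seq was performed on testis tissue of C57BL/6J mice at day 12 (d12), d16 and d24 after birth and on adult testes, with 1 library per stage and no treatment or transgene named for any of them. Values are FPKM, fragments normalised to transcript length and scaled between libraries by a factor that did not follow library size alone. With 1 library per stage, the variation from animal to animal is unknown and stages were compared without a test. Parentheses after a ratio hold an exact 95% interval from the number of fragments, which covers counting error only.

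Dividing cells need new histones when they copy their DNA, and the cluster genes supply them. Their mRNAs are the best known ones without a poly(A) tail: they end just after a short stem-loop, to which the stem-loop binding protein Slbp binds, and they are made in S phase and destroyed at its end. Most cluster genes have no introns and several are copied in nearly identical form. In the testis, spermatogonia divide and early spermatocytes replicate before meiosis, whereas later germ cells no longer replicate and exchange histones for testis variants, transition proteins and protamines. The libraries were made from total RNA, so that mRNAs without a poly(A) tail could be read.

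The stem-loops are shown because they define the class. Some of the members that did not follow the others have transcripts that run past it, or had none found in the stretch searched. Within 200 bases after the stop codon, a 16-base element with a perfect stem of 6 base pairs beginning GG and a loop of 4 bases beginning TT was found in 59 of 63 members with a coding part (93.7%), against 18 of 20353 other genes (0.0884%). In Hist1h2an, Hist1h3g and Hist1h4a it was found with 1 departure, in a search relaxed after these had been missed. In Hist2h2be it was not found in this window. It began 21 to 58 bases after the stop codon. In the lines that follow, the element is in capitals, with 7 flanking bases on each side, taken from the RefSeq genome GRCm38.p6 and written in the direction of the gene:
Hist1h1a (chr13:23764392-23764407, + strand): acccaacGGCTCTTTTCAGAGCCaccaaca
Hist1h2ai (chr13:21716839-21716854, + strand): caccaaaGGCTCTTTTCAGAGCCactcact
Hist1h2bl (chr13:21715718-21715733, - strand): actcaaaGGCTCTTTTAAGAGCCacccaca
Hist1h2bp (chr13:21787923-21787938, + strand): acacaaaGGCTCTTTTCAGAGCCacccaca
Hist2h2ac (chr3:96220418-96220433, - strand): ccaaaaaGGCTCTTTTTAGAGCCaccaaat
Hist1h3h (chr13:21718095-21718110, + strand): tttcaaaGGCTCTTTTCAGAGCCacccaaa
Hist1h4k (chr13:21750150-21750165, - strand): tacaaaaGGCCCTTTTCAGGGCCacccact
Hist1h4j (chr13:21735437-21735452, + strand): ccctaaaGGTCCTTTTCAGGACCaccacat
Hist1h4a (chr13:23760800-23760815, - strand): aaccaaaGGCCCTTCTCAGGGCCgcccaca

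The sequence of the element set H4 apart from the other types. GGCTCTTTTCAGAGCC was carried by 39 members, among them all 5 H1 genes, and no H4 gene had it. The 12 H4 genes with a perfect element carried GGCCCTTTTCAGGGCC (8), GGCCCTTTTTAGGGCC (2) or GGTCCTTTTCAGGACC (2), and no other type did. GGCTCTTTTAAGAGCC stood in 7 members, 3 of them H2B, 3 H3 and 1 H2A. In 57 members all curated RefSeq transcripts ended 4 to 8 bases past the element. In 5 others, Hist1h2bc, Hist1h2be, Hist1h2bp, Hist1h2bq and Hist1h3e, a curated transcript ran more than 100 genome bases beyond it. In Hist2h2be, whose transcript is 2667 bases long, none was found within 200 bases after the stop codon, and the rest was not searched. These 6 genes are treated as a class in what follows, which was formed after their values had been seen. For Hist2h2be, without the stem-loop means not found in this window.

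Many cluster genes stand head to head, with 1 stretch of DNA between the starts of 2 genes that point apart. There were 12 such pairs among the members, 11 of them of an H2A and an H2B gene. The stretches between the starts of 3 pairs are given on the + strand of GRCm38.p6, since the ratio of these partners changed between stages. Capitals mark CCAAT and TATAAA on either strand, which read ATTGG and TTTATA where they lie on the other strand:
Hist1h2bl (left) and Hist1h2ai (right), chr13:21716184-21716411: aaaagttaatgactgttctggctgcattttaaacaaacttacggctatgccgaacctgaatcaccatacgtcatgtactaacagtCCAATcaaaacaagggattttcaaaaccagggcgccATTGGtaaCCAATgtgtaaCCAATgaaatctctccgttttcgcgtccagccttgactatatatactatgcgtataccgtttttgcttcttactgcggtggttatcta
Hist1h2an (left) and Hist1h2bp (right), chr13:21787249-21787482: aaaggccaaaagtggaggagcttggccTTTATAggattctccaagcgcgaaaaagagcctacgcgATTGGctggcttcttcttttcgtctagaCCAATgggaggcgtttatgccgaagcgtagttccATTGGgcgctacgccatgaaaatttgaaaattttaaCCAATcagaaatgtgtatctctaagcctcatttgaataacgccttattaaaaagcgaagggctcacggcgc
Hist2h2ac (left) and Hist2h2be (right), chr3:96220881-96221071: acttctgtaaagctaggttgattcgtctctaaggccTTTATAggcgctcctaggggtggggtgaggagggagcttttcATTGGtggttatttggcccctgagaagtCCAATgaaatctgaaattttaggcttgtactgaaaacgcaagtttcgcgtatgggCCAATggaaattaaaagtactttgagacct

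The stretch of Hist1h2bl and Hist1h2ai held 4 CCAAT motifs and no TATAAA, that of Hist1h2an and Hist1h2bp 4 and 1, and that of Hist2h2ac and Hist2h2be 3 and 1. Promoter windows from 250 bases before to 50 after the start were found for 58 of the 64 members, and those of head-to-head partners overlap. On either strand, CCAAT stood in 84.5% of them against 41.1% of the promoters of all 27025 genes, and TATAAA in 56.9% against 15.7%. All H1, H2A, H2B and H3 promoters had a CCAAT, but only 3 of 12 H4 promoters did (25%). The octamer ATTTGCAT, bound by the factor Pou2f1, stood in 6 of 17 H2A and 6 of 14 H2B promoters and in none of the H1, H3 and H4 promoters, against 1.97% of all promoters. A match of letters does not show that a factor binds there.

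Together, the cluster genes were highest at d12 and lower at each later stage. Their summed level was 7391.9 FPKM at d12, then 6028.3, 3390.1 and, in the adult, 2674.2 FPKM. This is 2.61%, 1.96%, 0.717% and 0.406% of the FPKM of all genes of the respective library. The ratio was 0.816 (0.805 to 0.827) from d12 to d16, 0.562 (0.554 to 0.57) from d16 to d24, 0.789 (0.773 to 0.805) from d24 to adult and 0.362 (0.355 to 0.369) from d12 to adult, 2.76 times lower. For sums, the relative width of the interval comes from the summed fragments of members with known fragments. In whole tissue, fewer cells that copy their DNA and less histone RNA in each such cell cannot be told apart.

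Direction depends on the scale for part of this. Divided by Gapdh, which was at 68.9, 42.6, 19.1 and 20 FPKM, the sum ratio was 1.32 from d12 to d16, 1.25 from d16 to d24 and 1.24 from d12 to adult, so these 3 reversed, and from d24 to adult it was 0.752. On that scale the median of all genes was also 1.96 (log2) higher in adult testis than at d12. Set against the median of all genes, which moved by 0.20 as deposited, the members' median lay at -2.10 in the deposited values (log2). A factor common to all genes of a library cancels in this difference, so that a change of scale between libraries can move it only through the pseudocount. Statements on direction in what follows are on the deposited scale unless said otherwise.

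**Figure D1:**
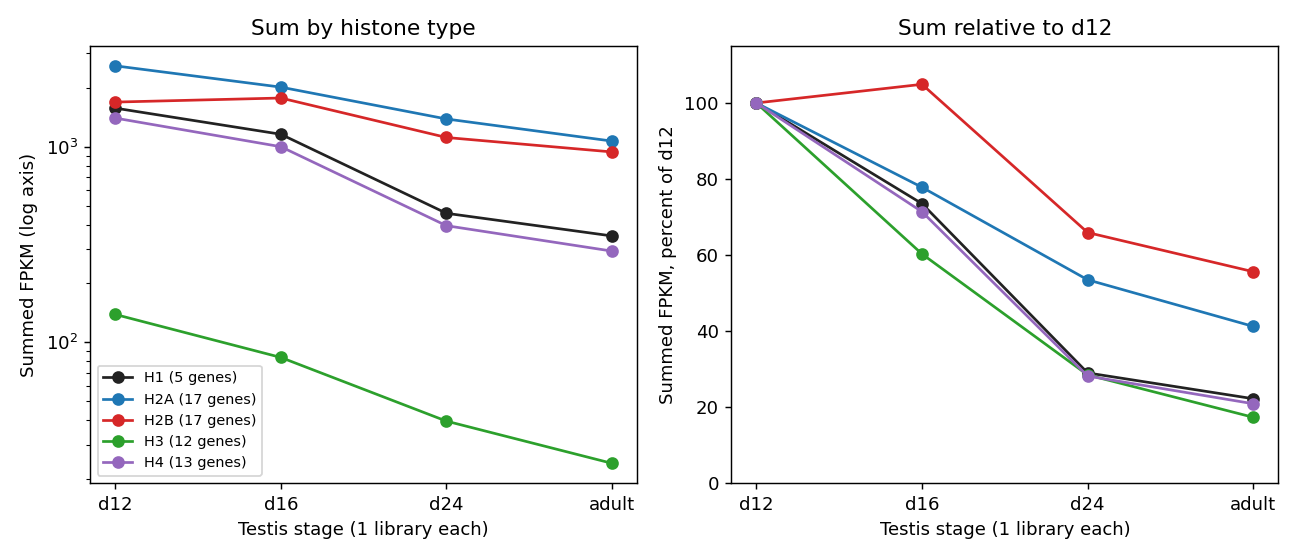
Left: summed FPKM (log axis) of the members of each histone type at the 4 stages, 1 library each. Right: the same sums as a percent of d12. The ratio of adult to d12 was 0.173 to 0.222 for H1, H3 and H4, 0.412 for H2A and 0.556 for H2B. On a Gapdh scale the sum of all members was higher, not lower, in adult testis than at d12 (ratio 1.24).

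Averaged over the 4 libraries, 55 of the 64 members reached 1 FPKM or more, and these are counted from here on. From d12 to d16, 1 of them was at least 2-fold lower and 1 at least 2-fold higher, on log2(FPKM + 0.1), which understates changes of low genes. Over all 13901 genes with such a mean, 3.67% were lower and 12.6% higher. From d16 to d24, 31 members were lower (8.45% of all genes) and 2 higher (27.5% of all genes). From d24 to adult, 9 were lower (2.2% of all genes) and none higher (11.4% of all genes). The 9 include Hist2h2aa2, whose sum with its near-identical copy Hist2h2aa1 was higher in the adult, at 142.6 FPKM against 111.6 at d24. Between d12 and adult testis, 43 of 55 members were at least 2-fold lower, against 23.1% of all genes, and 2 were at least 2-fold higher, against 35.7%. The 2 were Hist2h2be and Hist1h2bp. Only Hist2h2be was left once libraries were set to equal FPKM sums (23.2% of all genes) or scaled by the upper quartile (25.5%). By Gapdh there were 7 (70.9% of all genes). The largest step was thus that from d16 to d24, when the median member differed by -1.08 (log2) and the median gene by 0.13. The members outside 2-fold from d12 to d16 were Hist2h4 (lower) and Hist2h2be (higher), and the 2 that were higher from d16 to d24 were Hist2h2be and Hist2h2aa2, whose reads are shared with a copy. The d12 to d16 median was -0.47 (all genes 0.00) and that from d24 to adult -0.37 (all genes -0.02).

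The order of the stages was shared by most members. A level lower at each later stage than at the stage before was seen in 38 of 55 members (69.1%), against 23.7% of all genes, and 46 of 55 (83.6%) had their highest value at d12, against 35.3%. By counting error alone, the interval of the adult to d12 ratio lay below 1 in 47 of the 56 members for which an interval could be given. It lay above 1 in 3 and across 1 in 6. These 56 include members averaging under 1 FPKM, and the same count was not made over all genes. The 3 include Hist1h4n, with 0 fragments at d12 and 9 in adult testis, whose reads are shared with Hist1h4m. Levels were uneven. The 5 highest members held 53.8% of the sum at d12 and 57.7% in adult testis, and the median of all 64 went from 16.6 to 4.8 FPKM.

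**Figure D2:**
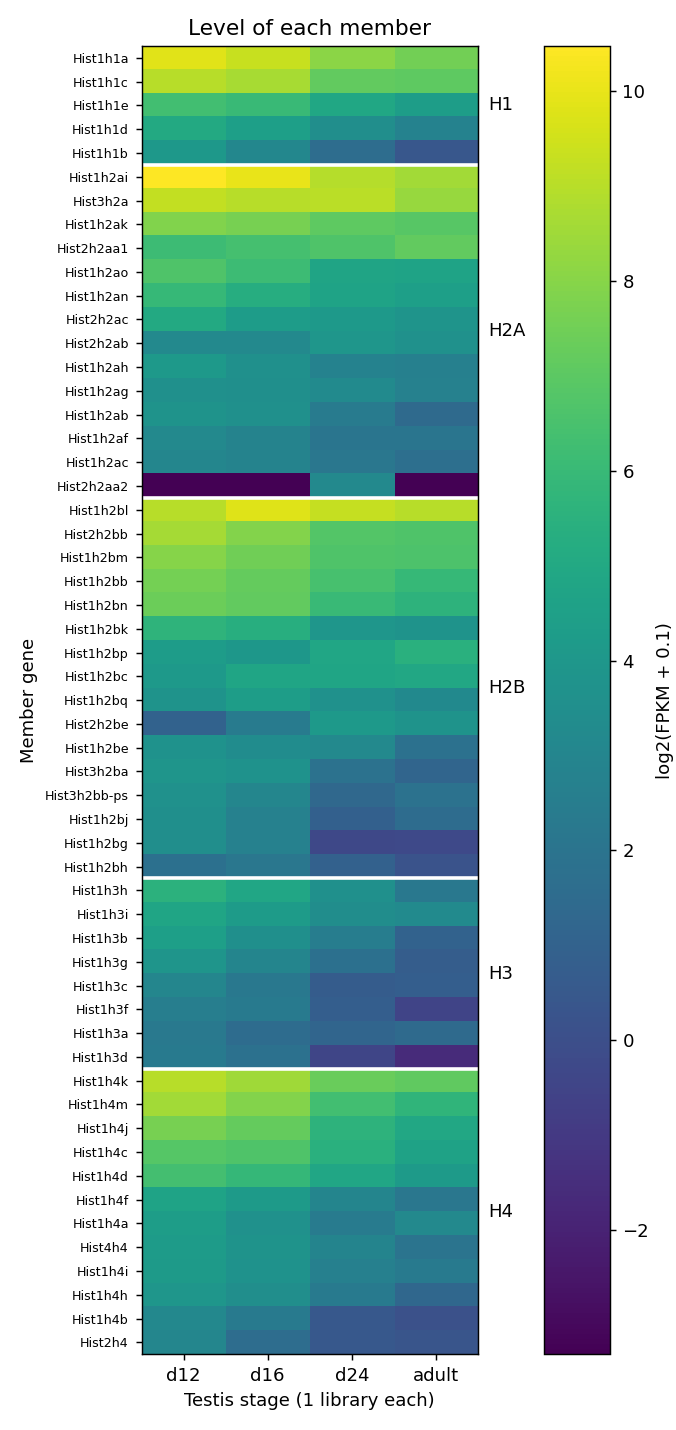
Level of each of the 55 members averaging 1 FPKM or more (rows, grouped by type and ordered by mean) at the 4 stages (columns, 1 library each), in colour as log2(FPKM + 0.1). Most rows darken from left to right, and Hist2h2be, Hist1h2bp, Hist1h2bc and Hist2h2aa1 brighten on the deposited scale, of which only Hist2h2be was also higher in adult testis than at d12 after rescaling to the same FPKM sum. Hist2h2aa2 shows a value only at d24, 8.84 FPKM, and is nearly identical to Hist2h2aa1.

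The linker histones bind the DNA between nucleosomes. Hist1h1a was the highest, at 925.3, 650.7, 266.4 and 186.5 FPKM in the order of the stages, and Hist1h1c followed at 520.0, 412.1, 146.0 and 134.7. Hist1h1e was at 79.6, 64.3, 30.1 and 20.5 FPKM. All 5 H1 genes were lower at each later stage (23.7% of all genes), and all 5 also after division by Gapdh from d12 to adult. Hist1h1d was at 32.8, 21.9, 11.3 and 6.79 FPKM. Hist1h1b, which had the lowest level, also had the lowest adult to d12 ratio of the type: it was at 16.4, 8.26, 2.98 and 1.27 FPKM, a ratio of 0.0775 (0.0348 to 0.151). The ratio was 0.202 (0.19 to 0.214) for Hist1h1a, 0.207 (0.149 to 0.282) for Hist1h1d, 0.257 (0.214 to 0.308) for Hist1h1e and 0.259 (0.241 to 0.279) for Hist1h1c. Among the H1 genes, the interval of Hist1h1b lay clear of all but that of Hist1h1d. Hist1h1a and Hist1h1b have no 50-base stretch in common with another gene.

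H4, which pairs with H3 in the nucleosome, showed the most uniform picture of the core histones. All 12 H4 genes averaging 1 FPKM or more were highest at d12 (35.3% of all genes). All 12 were at least 2-fold lower in adult testis (23.1% of all genes), and 11 were lower at each later stage (23.7% of all genes). Hist1h4k was at 507.4, 364.4, 159.5 and 137.4 FPKM, a ratio of 0.271 (0.246 to 0.298). Hist1h4m was at 375.6, 245.9, 79.2 and 51.7 FPKM. Its reads are shared with Hist1h4n, which was near 0 at d12, d16 and d24 and at 2.57 FPKM in adult testis, and their summed ratio was 0.144. Hist1h4j was at 204.2, 150.8, 48.9 and 30.6 FPKM, a ratio of 0.15 (0.122 to 0.181), below that of Hist1h4k beyond counting error.

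The H3 genes were the lowest of all types at every stage, although they encode as much of the nucleosome as H4. Their 12 genes summed to 139.0, 83.8, 39.6 and 24.1 FPKM, while the 13 H4 genes summed to 1400.2, 999.7, 394.7 and 292.7. H3 over H4 was thus 0.0992, 0.0839, 0.1 and 0.0823, a ratio within each library that scaling between libraries cannot move. Of the H3 genes 8 averaged 1 FPKM or more, all 8 were highest at d12 and 7 were at least 2-fold lower in adult testis. Of all genes, 35.3% were highest at d12 and 23.1% at least 2-fold lower. Hist1h3h was at 46.5, 28.4, 12.2 and 4.6 FPKM, Hist1h3b at 21.7, 11.5, 5.63 and 1.95, and Hist1h3i at 28.1, 19.0, 10.7 and 9.52. The adult to d12 ratio of Hist1h3h, 0.0989 (0.0595 to 0.156), was below that of Hist1h3i, 0.339 (0.235 to 0.479). Hist1h3d had the lowest ratio of all members, with 5.07, 3.49, 0.632 and 0.223 FPKM, but its adult value is 1 fragment and the interval runs from 0.00108 to 0.263. Between 0% and 69.3% of the 50-base stretches of H3 genes occur in no other annotated gene. Among annotated genes, the others recur only in other H3 members, which are part of the same sum. How many H3 reads were placed on other copies was not tested.

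H1 and H4 kept nearly the same proportion to each other. H1 over H4 was 1.12 at d12, 1.16 at d16 and d24 and 1.2 in adult testis. H2A and H2B, which form the dimers of the nucleosome, made up more of the sum later on. H2A over H4 was 1.85, 2.02, 3.51 and 3.65, and H2B over H4 was 1.21, 1.77, 2.82 and 3.21. As a share of all members, H2A and H2B made up 35% and 22.9% at d12 and 39.9% and 35.1% in adult testis, while H1 went from 21.3% to 13.1% and H4 from 18.9% to 10.9%. The adult to d12 ratio of the sums was 0.173 (0.141 to 0.212) for H3, 0.209 (0.196 to 0.223) for H4, 0.222 (0.213 to 0.232) for H1, 0.412 (0.399 to 0.426) for H2A and 0.556 (0.536 to 0.577) for H2B. By counting error, the interval of H4 overlaps those of H3 and H1, which do not overlap each other, and H2A and H2B lie clear of these and of each other. The difference between H2A and H2B rested on 1 member of each, picked after their values were seen. Without Hist3h2a the H2A ratio was 0.371, and without Hist1h2bl the H2B ratio was 0.37. Divided by Gapdh, these ratios stayed below 1 for H3 (0.596), H4 (0.719) and H1 (0.764) and were above 1 for H2A (1.42) and H2B (1.91).

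**Figure D3:**
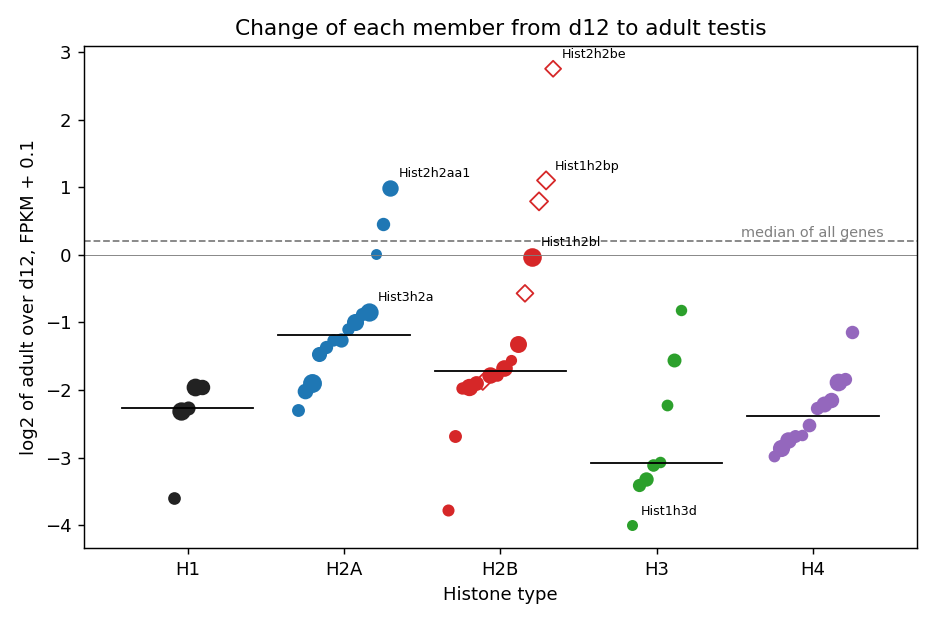
Each point is 1 of the 55 members averaging 1 FPKM or more, placed by type and by log2 of adult over d12 (FPKM + 0.1), with larger points for higher means. Black bars are medians of the type and the dashed line is the median of all genes (0.20). Open diamonds are members with a transcript running past the stem-loop or with no stem-loop found. Points above the dashed line belong to H2A or H2B. After division by Gapdh all points and the line shift upward alike, to a median of 1.96 for all genes and -0.12 for the members.

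Of H2A, 14 genes averaged 1 FPKM or more, and 8 of these were at least 2-fold lower in adult testis, against 23.1% of all genes. Hist1h2ai was the highest member of all at d12 and went through 1427.3, 1029.2, 497.0 and 383.7 FPKM, a ratio of 0.269 (0.254 to 0.284). Hist1h2ak was at 234.2, 197.3, 132.3 and 118.0 FPKM, a ratio of 0.504 (0.457 to 0.555), above that of Hist1h2ai. Hist3h2a was at 589.0, 514.6, 528.4 and 326.3 FPKM, a ratio of 0.554 (0.521 to 0.589), and made up 22.7% of the H2A sum at d12 and 38.1% at d24.

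Hist3h2a needs a closer look at the annotation. It lies at chr11:58954685-58955192 on the + strand. The curated transcript of Trim17, a gene on the same strand, starts 8589 bases after its end, but 1 predicted Trim17 model covers 100% of Hist3h2a and another 70.9%. None of the 50-base stretches of Hist3h2a is unique, since they recur in these models. Trim17 itself was at 0.998, 1.76, 98.3 and 507.4 FPKM. Reads of a longer Trim17 transcript and of Hist3h2a cannot be told apart here, and the part of Trim17 in the d24 and adult values was not tested. Without Hist3h2a the H2A sum went from 2000.1 to 741.5 FPKM, a ratio of 0.371, still above those of H1, H3 and H4.

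Of H2B, 16 genes averaged 1 FPKM or more, of which 11 were at least 2-fold lower and 2 at least 2-fold higher in adult testis. Of all genes, 23.1% were lower and 35.7% higher. Hist1h2bl was at 514.7, 904.8, 622.3 and 504.8 FPKM. It was highest at d16, and its adult to d12 ratio was 0.981 (0.927 to 1.04), whereas Hist2h2bb was at 400.1, 241.6, 110.4 and 103.3 FPKM (0.258, 0.233 to 0.285). Hist1h2bm was at 247.5, 176.7, 104.0 and 99.1 FPKM (0.401, 0.359 to 0.446). Hist1h2bl alone made up 30.5% of the H2B sum at d12 and 51%, 55.9% and 53.7% later, and without it the sum ratio was 0.37. Only 35.1% of the 50-base stretches of Hist1h2bl occur in no other gene: 56.4% recur in Hist1h2bq and 16.5% in the testis histone Hist1h2ba (H2bc1 in RefSeq), and the part of their reads in its values was not tested. Its curated transcript ends at the stem-loop. At the other end, Hist1h2bg was at 11.2, 6.55, 0.687 and 0.725 FPKM, with 3 fragments in adult testis and a ratio of 0.0648 (0.013 to 0.198).

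The 5 members with the highest adult to d12 ratio were 3 H2B and 2 H2A genes. Hist2h2be was at 1.95, 5.23, 17.2 and 13.7 FPKM, 7.02 times higher in adult testis than at d12 (5.38 to 9.34), with 65 and 326 fragments. All of its 50-base stretches are unique to it. Hist1h2bp was at 20.1, 16, 28.7 and 43.2 FPKM, a ratio of 2.15, and Hist1h2bc at 17.7, 27.5, 28 and 30.8, a ratio of 1.74. Both have transcripts of differing length, so that no fragments and no interval can be given. These 3 belong to the class with transcripts past or without the stem-loop. The direction of 2 of them depends on the scale. With the libraries set to equal FPKM sums, the log2 difference was -0.11 for Hist1h2bp and -0.42 for Hist1h2bc, and by the upper quartile it was 0.17 and -0.13. Hist2h2be was higher on all 4 scales, by 1.56 (log2) on the same sum, 1.84 by the upper quartile and 4.47 by Gapdh.

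Hist2h2aa1 was at 71.5, 85.3, 102.8 and 142.6 FPKM. Only 3.94% of its 50-base stretches are unique, and 96.1% occur in Hist2h2aa2, so the pair is best read as 1 unit. Its sum was 71.5, 85.3, 111.6 and 142.6 FPKM, a ratio of 1.99. Hist2h2ab was at 9.12, 9.13, 15 and 12.5 FPKM, a ratio of 1.38 (0.926 to 2.05) with an interval that includes 1. Hist2h2aa1, Hist2h2aa2, Hist2h2ab and Hist2h2be all lie in the Hist2 cluster, where 3 of the 7 members counted were at least 2-fold lower in adult testis. Of all genes, 23.1% were, and the pair of nearly identical copies is among the 7. In Hist1 it was 37 of 44, and the difference between the clusters was not tested. On the same sum the log2 difference was -0.22 for Hist2h2aa1 and -0.75 for Hist2h2ab, and by the upper quartile it was 0.06 and -0.47, so that their direction too depends on the scale.

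By the end of the transcript, 41 of 49 members whose curated transcripts all end at the stem-loop were at least 2-fold lower in adult testis and none was at least 2-fold higher, with a median of -1.95 (log2). The class with transcripts past or without the stem-loop had 5 members averaging 1 FPKM or more. Of these, 1 was at least 2-fold lower, Hist1h2be, and 2 were higher, Hist2h2be and Hist1h2bp, with a median of 0.79. Over all genes, 23.1% were lower and 35.7% higher, with a median of 0.20, and 5 genes are too few to set the class apart from these shares. The sum of the 6 was 68.7, 80.2, 95.8 and 100.7 FPKM, or 0.929% of the members' sum at d12 and 3.77% in adult testis. Because the class was formed after the values were known, this is a description only. Which of their transcripts was read cannot be seen from values per gene.

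Partners of a head-to-head pair were compared within each library, where scaling between libraries has no part. In 9 pairs of an H2A and an H2B gene, both averaged 1 FPKM or more. H2B over H2A was higher in adult testis than at d12 in 5 pairs and lower in 4. Of the 5, 4 had an H2B gene of the class with transcripts past or without the stem-loop, and of the other 4, none did. That class was formed after these values had been seen, so the split is a description only. The 4 higher pairs of that class include Hist1h2bq over Hist1h2ao, with a ratio of 0.132 at d12 and 0.359 in adult testis. No stretch of Hist1h2bq is unique, since all recur in the annotated gene H4bc24, and 19.9% of those of Hist1h2ao are unique. How far the placement of shared reads set this ratio was not tested. For Hist2h2be over Hist2h2ac, the latter at 33.4, 19.7, 17.2 and 13.9 FPKM, the ratio by stage was 0.0584 (0.0433 to 0.0774), 0.266 (0.209 to 0.339), 1 (0.854 to 1.18) and 0.986 (0.744 to 1.33). The ratio thus changed 16.9-fold, the most of the 9 pairs, from partners far apart at d12 to levels equal within counting error in adult testis. The d24 and adult intervals overlap.

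For Hist1h2bl over Hist1h2ai, the pair of highest level, the ratio by stage was 0.361 (0.346 to 0.376), 0.879 (0.847 to 0.913), 1.25 (1.21 to 1.3) and 1.32 (1.23 to 1.41). Most of this shift thus lay between d12 and d16, when Hist1h2ai was lower and Hist1h2bl higher. For Hist1h2bp over Hist1h2an, the latter at 60.4, 38.5, 26.0 and 21.8 FPKM, the ratio was 0.333, 0.417, 1.1 and 1.98. In the opposite direction, Hist1h2bn over Hist1h2ak was 0.7 (0.646 to 0.759) at d12 and 0.406 (0.344 to 0.477) in adult testis. Hist1h2bk over Hist1h2ah was 3.05 (2.45 to 3.82) and 2.12 (1.35 to 3.4), which overlap.

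**Figure D4:**
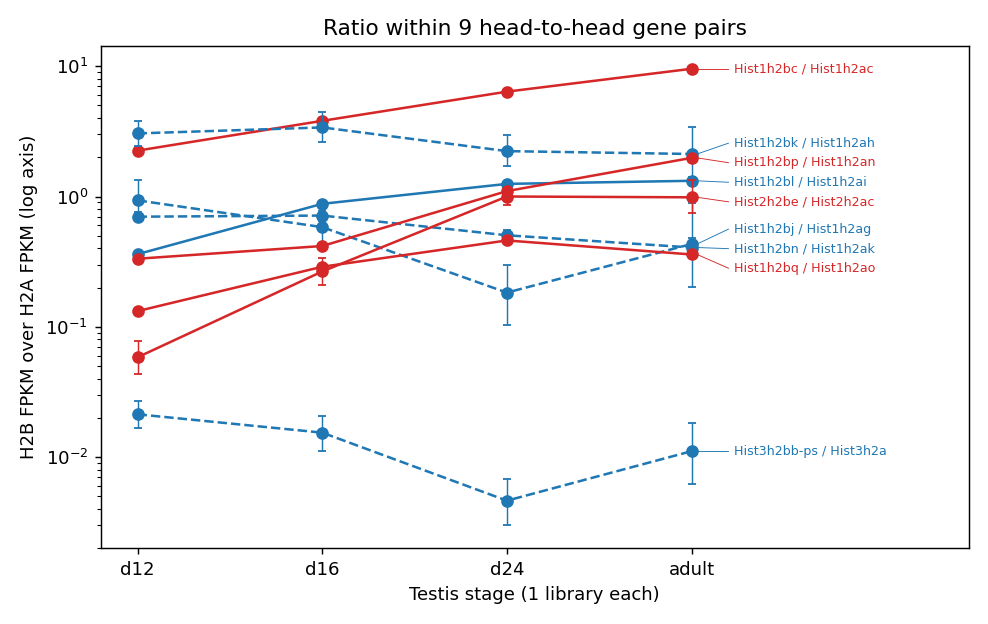
H2B FPKM over H2A FPKM (log axis) at the 4 stages, 1 library each, in the 9 head-to-head pairs with both means at 1 FPKM or more. Red pairs have an H2B gene with a transcript past the stem-loop or with no stem-loop found, a class formed after the values had been seen. Blue pairs do not. Solid lines end higher in adult testis than at d12 and dashed lines lower. Bars are exact 95% counting intervals, given where fragments are known. All 4 red lines and that of Hist1h2bl over Hist1h2ai are solid. In the red pair of Hist1h2bq and Hist1h2ao, the H2B gene has no unique stretch, so its ratio depends on how shared reads were placed.

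The 9 members with a mean under 1 FPKM add little. Hist1h2ad, Hist1h2ae and Hist1h2bf had at most 2 fragments at d12, Hist1h3e had 21 and Hist2h3b had 9. Hist1h2ap, Hist1h4n, Hist2h3c1 and Hist2h3c2 each have a nearly identical copy, and their low values depend on which copy the reads were given to. Hist2h3c1 and Hist2h3c2 together were at 1.23, 0.616, 0.701 and 1.04 FPKM. Hist1h2ao and Hist1h2ap together were at 104.3, 71.2, 27 and 25.8 FPKM.

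Most other genes of DNA replication were lower as well. Of 13, 8 were at least 2-fold lower in adult testis than at d12 and none was higher, against 23.1% and 35.7% of all genes, with a median of -1.67 (log2) beside -1.89 for the cluster genes, and of 0.10 beside -0.12 after division by Gapdh. Mcm2, part of the replicative helicase, was at 28.9, 18.7, 7.99 and 5.16 FPKM, and Tyms, which makes thymidylate, at 5.44, 2.91, 1.61 and 1.0. Pcna, the clamp of the polymerase, was at 87.8, 116.6, 136.3 and 140.3 FPKM, higher at each stage. Spermatogonia markers had a median of -2.16 and summed to 289.0, 169.4, 86.8 and 62.1 FPKM, with 5 of 6 at least 2-fold lower and Gfra1 at 1.2 FPKM at d12 and 2.41 in adult testis. Sertoli cell markers had a median of -1.72 and summed to 878.0, 738.8, 498.6 and 516.0 FPKM, of which Clu alone was 706.7 at d12. Amh was listed at 0 in adult testis.

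Markers of later germ cells went the other way over the same libraries. The 6 elongating spermatid markers summed to 13.2, 4.45, 2363.0 and 26391.9 FPKM, the 6 round spermatid markers to 3.19, 4.91, 404.1 and 1050.0, and the 6 pachytene markers to 50.7, 908.3, 4017.1 and 4728.0. The 6 early meiotic markers summed to 609.7, 1223.6, 835.6 and 785.2 FPKM but were split. From d12 to adult, 2 of them, Dmc1 and Prdm9, were at least 2-fold lower and 1, Spo11, higher, against 23.1% and 35.7% of all genes. The 6 Leydig markers summed to 131.6, 82.4, 153.4 and 580.7 FPKM, highest in adult testis. The 3 macrophage markers in the table summed to 10, 12.6, 9.24 and 6.26 FPKM, and the 4 endothelial markers to 19.3, 13.2, 6.6 and 7.44. The part of the changing mix of cells in the histone levels was not tested.

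The factors that make and process histone mRNA were, in the median, near their d12 level. Of 13 genes, 12 averaged 1 FPKM or more, 2 of which were at least 2-fold lower and 1 at least 2-fold higher in adult testis, against 23.1% and 35.7% of all genes, with a median of -0.08. Slbp was at 99.4, 129.8, 119.0 and 134.5 FPKM, and Npat, the coactivator of histone transcription, at 15.6, 13.1, 11.6 and 10.2. Casp8ap2, known as FLASH and part of the cleavage machinery, was at 47.7, 40.1, 19.6 and 16.3 FPKM. Hinfp, an activator of H4 genes, was at 7.53, 6.09, 4.1 and 2.51 FPKM. Sympk, a scaffold of the cleavage complex, was at 8.82, 14.1, 30.4 and 34.0 FPKM.

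Histone chaperones carry histones to DNA. None of 8 was at least 2-fold lower and 3 were at least 2-fold higher in adult testis, against 23.1% and 35.7% of all genes, with a median of 0.02. Nasp, which binds H3 and H4 as well as H1, was at 271.7, 356.4, 1134.8 and 1296.3 FPKM, and Chaf1a, the large subunit of the factor that loads H3 and H4 at the fork, at 12.8, 24.4, 80.3 and 103.1. Replacement histones can also be made outside S phase, most of them from mRNAs with a poly(A) tail. Of 11 genes, 2 were at least 2-fold lower and 1 higher, again against 23.1% and 35.7% of all genes, with a median of 0.08. H3f3a, which encodes H3.3, was at 431.7, 434.5, 590.4 and 732.8 FPKM, and Cenpa, the H3 of centromeres, at 15.2, 8.14, 3.85 and 3.19. At every stage H3f3a alone was above the sum of all 12 cluster H3 genes.

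The 3 testis histones of the clusters took differing courses. Hist1h1t, the linker histone of spermatocytes, was at 45.6, 398.3, 598.6 and 560.6 FPKM, above the H1 members together at d24 (456.7) and in adult testis (349.8). Hist1h2ba was at 318.3, 779.8, 514.6 and 414.6 FPKM, highest at d16 like Hist1h2bl. Hist1h2aa was at 1909.5, 2248.7, 998.6 and 987.0 FPKM and was above every cluster member at each stage.

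**Figure D5:**
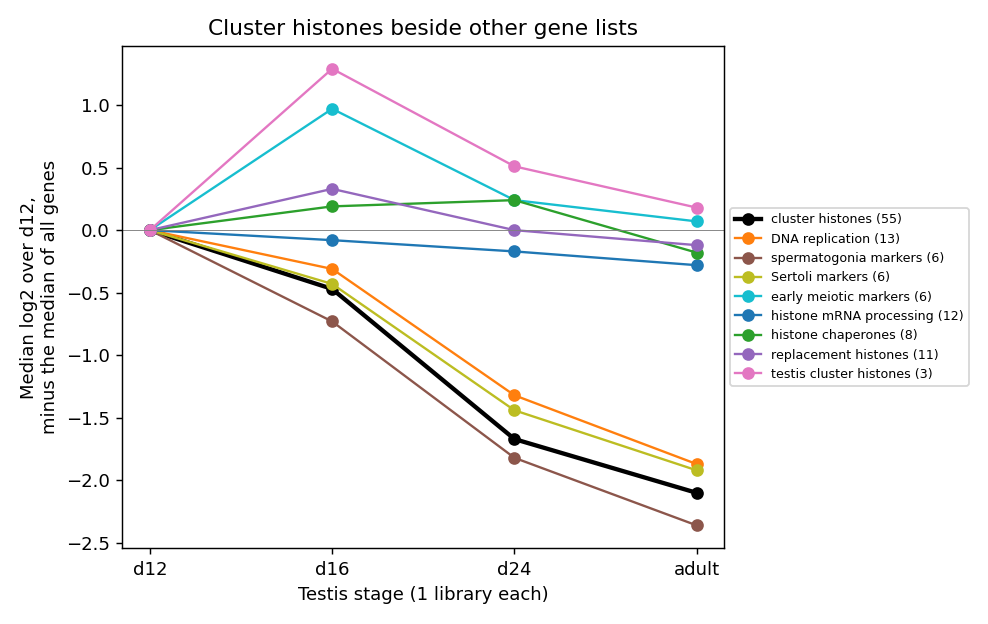
Median log2 change from d12 of each list, minus the median change of all genes, at the 4 stages (1 library each). Numbers in the legend are genes averaging 1 FPKM or more. In adult testis the cluster histones lay at -2.10, near DNA replication genes (-1.87), spermatogonia markers (-2.36) and Sertoli markers (-1.92), while processing factors (-0.28), chaperones (-0.18) and replacement histones (-0.12) lay near 0.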

How the data were processed

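Total RNA of testes was made into strand-specific libraries (ScriptSeq v2) and sequenced as read pairs. The deposited values are FPKM of 23983 genes. The authors used TopHat2 2.1.0 with Bowtie 1.1.2 to align pairs to GRCm38/mm10, keeping 1 alignment per pair, and computed FPKM with Cuffdiff of Cufflinks 2.2.1 on RefSeq genes, with multi-read and bias correction. Near-identical copies thus share reads in a way that the mapping decides. Scaling between libraries is not given in the sources used here, but it was not by library size alone. By the fragments recovered below, adult testis had more fragments on genes than d12 (12739878 against 9330376). Yet 1 fragment on 1 kb was worth 0.112 FPKM in the adult and 0.0799 at d12. The FPKM of all genes summed to 659201.9 in the adult and 283579.7 at d12. The 4 H3K27ac ChIP samples are not analysed here.

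Symbols were matched to RefSeq of GRCm38.p6 by symbol (22550) or synonym (1272), and 161 were unmatched. All 64 members matched. Fragments were recovered by dividing FPKM by what 1 fragment is worth, in genes with 1 curated transcript length (lengths within a factor of 1.1): 91.2% to 92.2% of values up to 20 fragments were within 0.05 of a whole number. Fragments on genes numbered from 9330376 (d12) to 24983186 (d24), and 3 fragments on 1 kb are 0.137 to 0.336 FPKM. Intervals are exact (Clopper-Pearson), and fragments may be PCR copies. On simulated data of 15430 genes, the value of 1 fragment was recovered within 1% in 4 of 4 libraries. On simulated pairs of independent counts, 477 of 500 intervals held the true ratio. Neither simulation had reads shared between copies, so they say nothing of that source of error.

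Changes are on log2(FPKM + 0.1), for genes averaging 1 FPKM or more. A 50-base stretch is unique if no other annotated gene holds it. Head-to-head starts lie at most 1000 bases apart. Members named are all H1 genes, the 3 highest of each other type, the 5 highest and 5 lowest in adult over d12, those at least 2-fold higher in adult testis, and the head-to-head pairs. Others, such as near-identical copies and members under 1 FPKM, were named after their values were seen. Members, lists and alternatives were chosen with earlier results of these data known. Tools were scipy 1.17.1, pandas 2.3.3, numpy 2.4.6 and matplotlib 3.10.9 in Python 3.11.15.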

Additional observations from a re-analysis of the deposited data

How the results depend on the processing

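With 1 library per stage no replicate could be left out and differences between animals are unknown. No paired analysis was possible because no stage has a second library. The scale between libraries mattered most. Rescaled to the same FPKM sum, the summed level changed to 0.751 (d12 to d16), 0.366 (d16 to d24), 0.566 (d24 to adult) and 0.156 (d12 to adult) times, and by the upper quartile to 0.737, 0.39, 0.661 and 0.19. By Gapdh it was 1.32, 1.25, 0.752 and 1.24, a reversal in all but the step from d24 to adult. In genes with at least 80% unique stretches, 9 members, the ratios were 0.708 (d12 to d16), 0.425 (d16 to d24), 0.8 (d24 to adult) and 0.241 (d12 to adult). Without Hist1h2ai they were 0.838, 0.579, 0.792 and 0.384, and without Hist1h2bl and Hist3h2a, a setting chosen after the values were seen, 0.733, 0.486, 0.823 and 0.293.

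The number of members at least 2-fold lower from d12 to d16 was 4 on the same sum, by the upper quartile or without a filter. It was 0 by Gapdh or with a mean of at least 5 FPKM. Of all genes, 5.78% were lower on the same sum, 5.99% by the upper quartile and 0.842% by Gapdh. From d16 to d24 the number of members was 2 by Gapdh (0.36% of all genes), and 5 in the 9 members with mostly unique stretches. From d24 to adult it was 23 on the same sum (10% of all genes), 2 in those 9 members and 4 with a pseudocount of 1. From d12 to adult it was 9 by Gapdh and 7 in those 9 members. The number at least 2-fold higher from d12 to adult was 2 as deposited and 1 on the same sum or by the upper quartile, where Hist1h2bp was lost. By Gapdh it was 7 (70.9% of all genes). Rescaling to the same sum moved the share of members at least 2-fold lower from d12 to adult from 78.2% to 89.1%, and division by Gapdh moved it to 16.4%. The share of all genes moved too, from 23.1% to 49.9% on the same sum and to 1.91% by Gapdh. Counts in the 9 members are smaller by construction.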
